A study of Catharanthus roseus with 15 samples.

Results

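A set of 152 genes of Catharanthus roseus (Madagascar periwinkle) stood higher in leaves 3 h after a spray of ethephon and also 3 h after a spray of methyl jasmonate than in leaves at 0 h. They were chosen by these measured levels from 33829 counted genes. A gene was a member when its largest group mean reached 5 CPM (a gene's count scaled to a library total of 1000000), when its mean at 3 h was at least 2-fold above 0 h after each hormone, and when the lowest of the 6 libraries at 3 h lay above the highest library at 0 h. Ratios are given as log2 of group means after a pseudocount of 0.5 CPM, so that 1 is a 2-fold difference and the change of a low gene is understated. The gene IDs CRO_001062 (RAP2.12), CRO_004901 (a bHLH factor) and CRO_026277 (HB-1) were set aside beforehand. The first and the third would have met the rule.

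The study sprayed seedlings of the cultivar Vitae Rose Red with 100 µM ethephon (ETH) or 100 µM methyl jasmonate (MJ) and sequenced leaf mRNA. Leaves were taken 3 h and 24 h after either hormone (groups ETH 3 h, MJ 3 h, ETH 24 h, MJ 24 h) and set against a 0 h group shared by both, with 3 libraries each and 15 in all. The labels give an age of 2 weeks while the methods of the study name older seedlings, and neither says how many plants entered a library. The methods describe a water spray as mock treatment, but none of the 15 libraries is labelled as a mock at 3 h or 24 h. The hormone, the act of spraying and the time passed since 0 h therefore cannot be told apart in any comparison with 0 h. At 3 h the time of day also differs from 0 h, whereas at 24 h it is nominally the same. In leaf RNA, more cells of a type and more RNA per cell cannot be told apart either.

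Ethephon breaks down in plant tissue and releases ethylene, a gaseous hormone. In Arabidopsis, ethylene binding to membrane receptors such as ETR1 and EIN4 stops the kinase CTR1 from holding back EIN2, EIN3-type transcription factors then accumulate, and EBF2 marks those factors for breakdown. Methyl jasmonate is the volatile form of jasmonate, the hormone of wounding and herbivore defence. In Arabidopsis its active form leads to the removal of JAZ repressors and frees bHLH factors of the MYC type. In Catharanthus leaves both hormones are known as elicitors of monoterpenoid indole alkaloids, the class that holds catharanthine, vindoline and vinblastine.

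Library totals ran between 23710688 and 31168281 counts. The first library of each hormone at 3 h stood apart: a list of 19 genes of young or dividing tissue summed to 302.4 CPM in ETH 3 h replicate 1 and 429.2 CPM in MJ 3 h replicate 1, against 50.0 to 82.6 CPM in the other 13 libraries. RFC2 and RPA1A of this list did not stand out there. None of the 19 was a member and none was without counts in all libraries. Members could follow a like pattern. CRO_029770, singled out after its values were seen, had 2521, 346 and 286 counts at ETH 3 h. It had 3038, 344 and 399 at MJ 3 h and 268, 270 and 219 at 0 h. Of the 6 libraries at 3 h, the first ETH and MJ libraries were the highest for 37 and 19 members. They were the lowest for 24 and 38. The same first libraries had 433.8 and 574.1 CPM of 7 heat shock and chaperone genes, where the other 4 libraries at 3 h had 1051.1 to 1230.8 CPM. A list of 6 leaf chloroplast genes was well represented in every library (1616.5 to 6004.4 CPM), and 5 flower or seed markers summed to 47.7 to 167.8 CPM. The heat shock sums were mostly ATJ3 and HSP70. PSAF made up most of the chloroplast sums and AP3 most of the flower or seed sums. Without both first libraries the rule found 188 genes, of which 114 were among the 152 members, and the part of these libraries in the set was otherwise not tested.

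Of 14770 genes with a largest group mean of at least 5 CPM, 527 (3.57%) met the ETH 3 h part of the rule and 736 (4.98%) met the MJ 3 h part. The 154 genes that met both parts (1.04%) were 29.2% of the ETH genes and 20.9% of the MJ genes. Both parts share the 0 h libraries, so these shares are descriptions of the choice. The members' median log2 ratio over 0 h was 1.54 at ETH 3 h, with a range of 1.001 to 6.47, and 1.72 at MJ 3 h, with a range of 1.01 to 6.31. The medians of all 14770 genes were 0.14 and 0.06. A 4-fold or larger ratio after both hormones (a log2 ratio of at least 2) was found for 28 members, and an 8-fold one for 7.

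**Figure D1:**
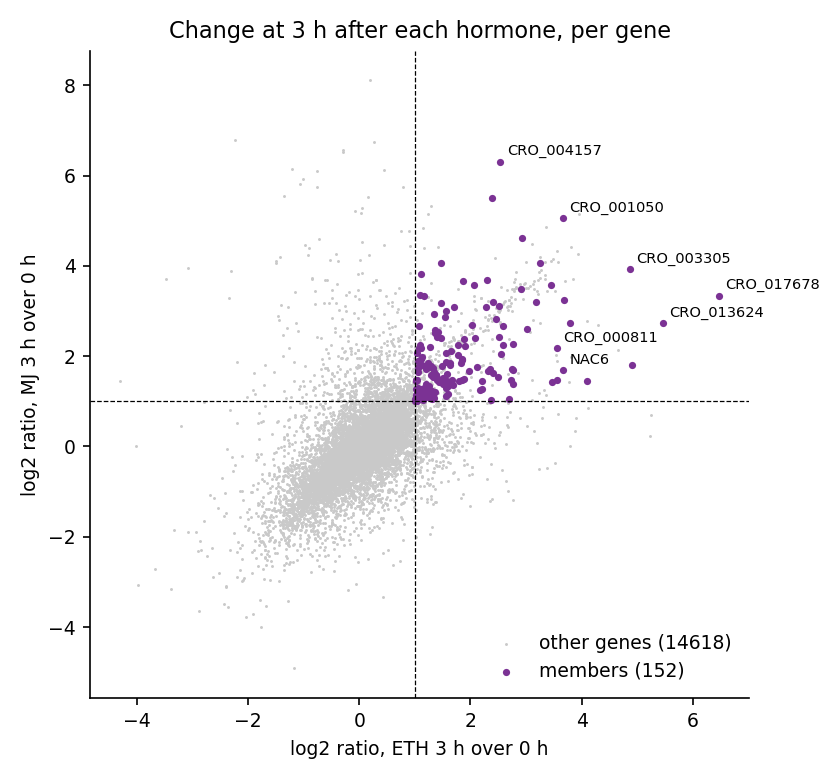
Log2 ratio over 0 h of each gene with a largest group mean of at least 5 CPM, at ETH 3 h (horizontal axis) and at MJ 3 h (vertical axis). The dashed lines mark the 2-fold threshold of the rule, purple points are the 152 members and grey points the other 14618 genes. Grey points past both lines failed the no-overlap condition or were set aside by ID.

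The threshold cut through a continuous range of values. CRO_031732 was just inside it, with log2 ratios of 1.001 at ETH 3 h and 1.007 at MJ 3 h, as was CRO_030646 with 1.010 and 1.061. CRO_006016 was just outside, with 0.999 at ETH 3 h and 2.199 at MJ 3 h, and so was CRO_024229 with 0.998 and 1.822. The 0 h libraries also set the size of the list. Replicate 2 was the highest 0 h library for 111 of the 152 members, and without it the rule found 330 genes, 150 of them among the 152.

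Members covered a wide span of levels. At 0 h, 9 had a mean under 1 CPM, 62 had 1 to 10 CPM, 63 had 10 to 100 CPM and 18 had 100 CPM or more. Their median level was 44.7 CPM at ETH 3 h and 50.0 CPM at MJ 3 h, against 13.4 CPM at 0 h. Summed over the members, the libraries held 18692 to 21289 CPM at ETH 3 h and 19322 to 28281 CPM at MJ 3 h, against 5016 to 8722 CPM at 0 h. The group with the highest mean was MJ 3 h for 90 members, ETH 3 h for 48, ETH 24 h for 13 and MJ 24 h for 1.

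**Figure D2:**
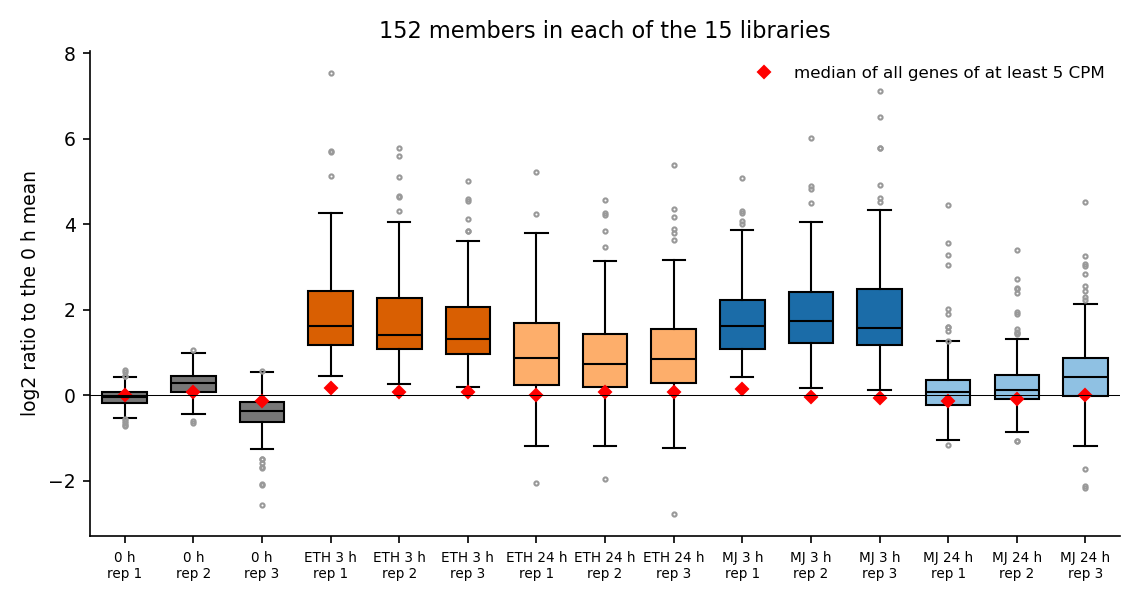
Log2 ratio of the 152 members to the 0 h mean in each of the 15 libraries. Boxes span the quartiles with the median as a line, whiskers reach 1.5 times the box height and circles lie beyond them, and red diamonds mark the median of all genes of at least 5 CPM. Medians of the members lie at 1.32 to 1.63 in ETH 3 h, 0.73 to 0.87 in ETH 24 h, 1.58 to 1.75 in MJ 3 h and 0.08 to 0.44 in MJ 24 h libraries.

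Names were scarce: 3 members are paired with a name or an Arabidopsis match in the study's tables, and the other 149 are given by ID alone. CRO_025185 is named NAC6, a member of the plant-specific NAC family of transcription factors. Its level was 14.4, 22.8 and 22.7 CPM in ETH 3 h libraries and 3.34, 7.92 and 2.86 CPM in MJ 3 h libraries, against 1.61, 1.26 and 0.439 CPM at 0 h. At 24 h it was 20.2, 29.4 and 32.7 CPM in ETH libraries and 0.412, 3.89 and 8.17 CPM in MJ libraries. NAC6 was thus highest of all at ETH 24 h, and its ETH and MJ libraries did not overlap at either time. Its MJ 24 h libraries lay on both sides of the 0 h range, with 0.412 CPM just below it and 3.89 and 8.17 CPM above it. The difference between ETH and MJ at 24 h, a log2 fold change of 2.62 ± 0.754 (SE), did not pass the test (edgeR adjusted p = 0.124).

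CRO_000811 lies on cro_scaffold_3063395 at 24729 to 26362 on the plus strand in the study's annotation and matches Arabidopsis AT1G25330, a gene of the bHLH superfamily, which holds DNA-binding transcription factors. It was low throughout. Its level was 18.5, 7.19 and 7.99 CPM in ETH 3 h libraries and 2.81, 6.10 and 3.20 CPM in MJ 3 h libraries, against 0.283, 0.803 and 0.399 CPM at 0 h. At 24 h it was 7.19, 6.52 and 4.89 CPM in ETH libraries and 1.37, 1.43 and 4.16 CPM in MJ libraries, all 6 of which stayed above 0 h. The 24 h groups did not overlap, and the log2 fold change of 1.31 ± 0.512 (SE) did not pass the test (edgeR adjusted p = 0.253).

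CRO_000108, on cro_scaffold_3062407 at 7399 to 9379 on the minus strand, matches AT5G18130, an Arabidopsis protein of unknown function. It was abundant in every library. ETH 3 h libraries held 270.4, 477.3 and 586.7 CPM and MJ 3 h libraries 251.1, 667.8 and 439.5 CPM, against 144.2, 227.7 and 75.6 CPM at 0 h. At 24 h the level was 316.0, 365.3 and 302.6 CPM in ETH libraries and 113.5, 194.5 and 275.8 CPM in MJ libraries. The first library of each hormone was the lowest of its group at 3 h, and the lowest ETH 24 h library was above the highest MJ 24 h library. The log2 fold change between them, 0.64 ± 0.457 (SE), did not pass the test (edgeR adjusted p = 0.580).

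The largest ratios shared by both hormones belonged to 3 members without a name. CRO_003305 had 33.0, 32.4 and 16.2 CPM at ETH 3 h and 8.12, 15.3 and 18.8 CPM at MJ 3 h, against 0.767, 0.306 and 0.279 CPM at 0 h, which gave log2 ratios of 4.86 and 3.94. It was under 1 CPM in every 0 h library. CRO_001050 had 100.2, 100.0 and 72.5 CPM at ETH 3 h and 105.8, 213.8 and 399.9 CPM at MJ 3 h, against 4.12, 14.0 and 2.07 CPM at 0 h (log2 ratios 3.66 and 5.06). Its MJ 3 h libraries differed among themselves more than the ETH 3 h ones, and all of them lay above every ETH 3 h library. CRO_015682 had 29.6, 107.2 and 74.2 CPM at ETH 3 h and 44.8, 87.5 and 98.1 CPM at MJ 3 h, against 4.24, 13.2 and 0.598 CPM at 0 h (log2 ratios 3.44 and 3.57). Here the 2 hormone groups overlapped.

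The most abundant unnamed members at 3 h changed by smaller ratios. CRO_001093 had 1028.3, 2124.1 and 1647.5 CPM at ETH 3 h and 862.4, 1923.3 and 1590.9 CPM at MJ 3 h, against 661.9, 748.7 and 227.3 CPM at 0 h. In both hormone groups the first library was the lowest. CRO_032819 had 714.3, 1064.4 and 757.1 CPM at ETH 3 h and 1007.1, 1846.5 and 2333.7 CPM at MJ 3 h, against 308.5, 411.5 and 246.1 CPM at 0 h. CRO_015321 had 1078.6, 1048.7 and 840.2 CPM at ETH 3 h and 1366.8, 1432.3 and 1413.4 CPM at MJ 3 h, against 390.3, 482.7 and 343.9 CPM at 0 h. For CRO_015321 the MJ 3 h libraries lay close together and above all ETH 3 h libraries.

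By 24 h the members stood further above 0 h in ETH leaves than in MJ leaves. Their median log2 ratio over 0 h was 0.88 in ETH 24 h leaves and 0.25 in MJ 24 h leaves, where all genes of at least 5 CPM had medians of 0.07 and -0.05. At ETH 24 h, 66 of the 152 members (43.4%) were still at least 2-fold above 0 h with no overlap between the libraries, against 478 of all 14770 genes (3.24%). At MJ 24 h this held for 12 members (7.89%), against 102 of all genes (0.691%). These counts use the 0 h libraries that also chose the members, so they describe the set and are no test. The 66 and the 12 had 8 members in common, while 82 members were in neither count.

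The 4 members counted at MJ 24 h and not at ETH 24 h were CRO_000255, CRO_013100, CRO_020790 and CRO_032819. At 24 h the summed level of all members was 12850, 12600 and 13174 CPM in ETH libraries and 8083, 8270 and 10669 CPM in MJ libraries, against 6734, 8722 and 5016 CPM at 0 h. The ETH libraries lay close together. MJ 24 h replicate 3 stood above the other MJ 24 h libraries: 86 members exceeded every 0 h library in it, against 46 in replicate 1 and 53 in replicate 2, and 107 to 110 did so in the ETH 24 h libraries. Without MJ 24 h replicate 1 the count of 12 became 21. The leaf chloroplast genes summed to 3577.8, 2868.9 and 3072.4 CPM in ETH 24 h libraries and to 4464.5, 5274.1 and 3010.4 CPM in MJ 24 h libraries, with the lowest MJ sum in replicate 3. Most of each sum was PSAF, with means of 2439.7 CPM at ETH 24 h and 3531.0 CPM at MJ 24 h. HCF107 also had its lower mean at ETH 24 h, while CLPR1, CLPP5, CRR7 and NPQ7 had their higher mean there. The part of these genes in the difference was not tested.

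**Figure D3:**
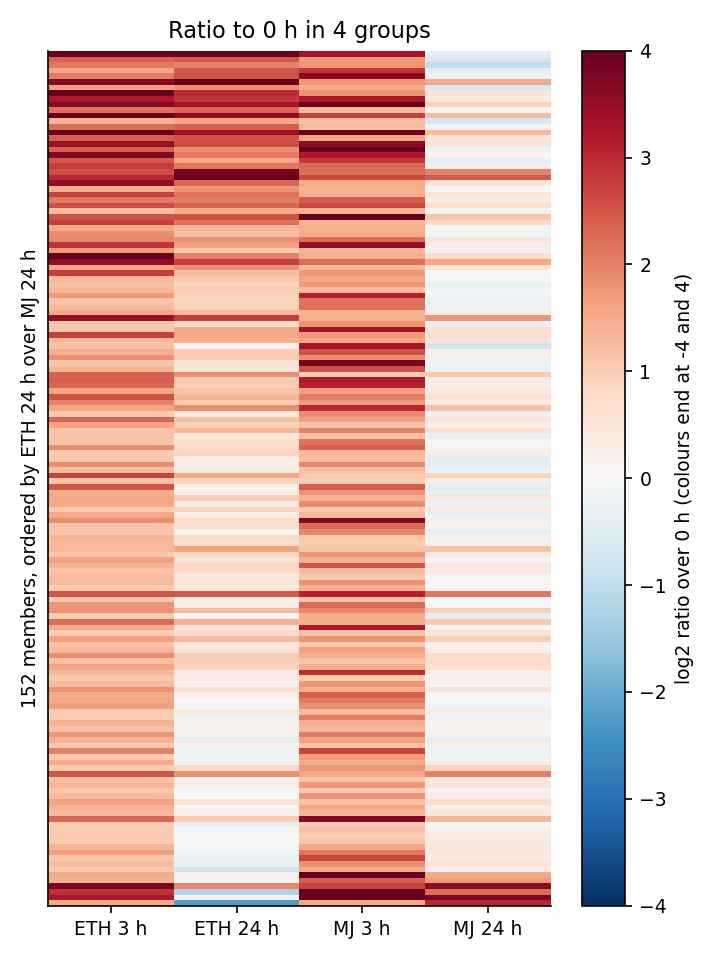
Log2 ratio of group means over 0 h for the 152 members (rows) in the ETH leaves at both times and then the MJ leaves (columns), with rows ordered by the ratio of ETH 24 h over MJ 24 h. Both 3 h columns are red by the choice of the members. The ETH 24 h column stays red over much of its height (median 0.88), whereas the MJ 24 h column is pale (median 0.25) except for a few rows.

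The comparison of ETH 24 h with MJ 24 h was tested. The fold and no-overlap conditions of the rule used no 24 h library, and all 152 members reached 5 CPM at 3 h or 0 h, so the level condition did not turn on the 24 h groups for them. Of the 14770 genes of at least 5 CPM, 122 reached that level at 24 h only. Per library medians of the members over the 0 h mean were 0.87, 0.73 and 0.86 at ETH 24 h and 0.08, 0.12 and 0.44 at MJ 24 h, so that the groups did not overlap. The members' median log2 ratio of ETH 24 h over MJ 24 h was 0.63, and that of all genes of at least 5 CPM was 0.13. The 0.13 is a shift of the whole table that trimmed-mean (TMM) scaling takes out: under TMM the members' median was 0.49. In 74 members (48.7%) every ETH 24 h library exceeded every MJ 24 h library, against 25.5% of all genes, and in 10 (6.58%) the reverse held, against 7.52% of all genes. Under TMM scaling these counts were 65 and 17 of the 152 members, against 15.6% and 14.2% of all genes.

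All 152 members passed the filter on low counts and were among the 18008 genes tested with edgeR's quasi-likelihood test, with calls made where the adjusted p lay below 0.05 and the fold change above 1.5 in either direction. At 24 h, 16 members were called higher in ETH leaves and 3 lower, together 19 of 152 (12.5%). Over all genes tested, 108 were called higher (0.6%) and 79 lower (0.439%), together 187 (1.04%). The log2 fold changes of the 16 ran between 1.11 and 6.68, and for all 19 the libraries of the 2 groups did not overlap. Unadjusted p fell below 0.05 for 67 members (44.1%), against 14.8% of all genes. Leaving out ETH 24 h replicate 1, 2 or 3 left 6, 11 or 4 members called, and leaving out MJ 24 h replicate 1, 2 or 3 left 6, 7 or 17, with 0.110% to 1.09% of all genes called in these fits. The main fit drew each gene's spread from all 15 libraries, among them the 0 h and 3 h libraries that chose the members. A fit of the ETH 24 h and MJ 24 h libraries alone called 32 members (21.1%), against 552 of 17428 genes (3.17%).

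CRO_017678 had the largest fold change in favour of ETH. It had 37.4, 23.7 and 42.1 CPM in ETH 24 h libraries, against 0.206, 0.307 and 0.398 CPM in MJ 24 h libraries, where it rested on 6, 9 and 11 counts. The log2 fold change was 6.68 ± 0.748 (SE; edgeR adjusted p = 0.00213), and the call held in each fit that left out a library of either group. Of the 3 MJ 24 h libraries, 2 were in the range of 0 h (0.565, 0.688 and 0.279 CPM) and 1 lay below it, although the gene had reached 6.91, 9.31 and 13.0 CPM at MJ 3 h. At ETH 3 h it had 188.4, 54.9 and 23.8 CPM, the highest value in the first library.

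CRO_009970 had 30.2, 11.1 and 37.9 CPM in ETH 24 h libraries, against 2.68, 2.94 and 1.84 CPM in MJ 24 h libraries (log2 fold change 3.27 ± 0.529 SE, edgeR adjusted p = 0.0138). CRO_018795 had 26.4, 14.2 and 27.4 CPM in ETH 24 h libraries, against 2.10, 2.73 and 2.39 CPM in MJ 24 h libraries (log2 fold change 3.11 ± 0.459 SE, edgeR adjusted p = 0.0117). Both had kept about their 3 h level under ETH, with means of 23.9 and 24.8 CPM at 3 h. Under MJ their means were 15.2 and 19.2 CPM at 3 h, and at 24 h they lay below the 0 h means of 4.29 and 5.32 CPM. Leaving out ETH 24 h replicate 1 or 3 ended both calls, as did leaving out MJ 24 h replicate 1 or 2, with adjusted p up to 0.0852 for CRO_009970 and 0.0818 for CRO_018795. The remaining 12 members called with these had smaller log2 fold changes, from 1.11 to 2.72, plus CRO_013624, which is described with the 3 h values.

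The 3 members called lower in ETH 24 h leaves went the other way from the set as a whole. CRO_020790 had 0.605, 0.673 and 0.169 CPM in ETH 24 h libraries, against 43.7, 29.5 and 38.2 CPM in MJ 24 h libraries (log2 fold change -6.36 ± 0.600 SE, edgeR adjusted p = 0.00119). The ETH 24 h values were also below all 0 h libraries (3.55, 3.52 and 5.15 CPM), after 8.60, 14.7 and 14.1 CPM at ETH 3 h. Under MJ the gene had 6.27, 11.6 and 19.7 CPM at 3 h, and it was the member whose highest group was MJ 24 h. Its call held without each library in turn.

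CRO_013100 had 1.06, 0.248 and 0.717 CPM in ETH 24 h libraries, against 23.3, 11.1 and 8.39 CPM in MJ 24 h libraries (log2 fold change -4.54 ± 0.681 SE, edgeR adjusted p = 0.0124). At ETH 24 h 2 libraries were in the range of 0 h (0.888, 0.191 and 0.678 CPM) and the first lay just above it, whereas at MJ 24 h it overlapped its own 3 h values of 21.2, 12.4 and 19.5 CPM. Without ETH 24 h replicate 3 the call was lost (adjusted p = 0.0764). CRO_032819, among the most abundant members, had 346.0, 366.4 and 329.4 CPM in ETH 24 h libraries, against 1215.0, 870.7 and 1103.1 CPM in MJ 24 h libraries (log2 fold change -1.75 ± 0.319 SE, edgeR adjusted p = 0.0274). Its call held only without MJ 24 h replicate 3 among the fits that left out a library, and the highest adjusted p was 0.135.

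The change between 3 h and 24 h rests in part on the 3 h libraries that chose the members, so it is given as a description. Relative to 3 h, the members' median log2 ratio was -0.82 at ETH 24 h and -1.42 at MJ 24 h.

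**Figure D4:**
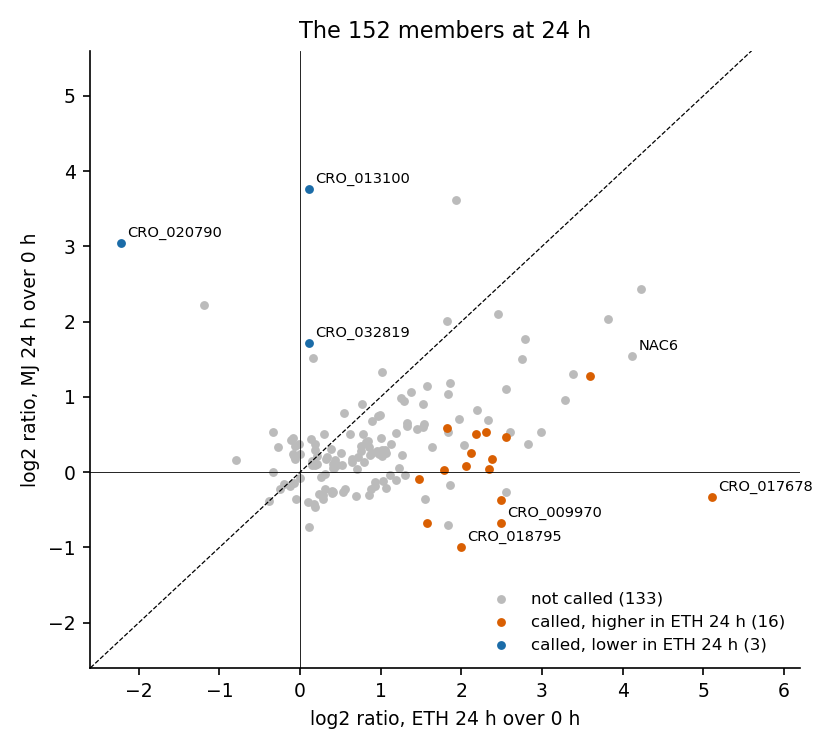
Log2 ratio over 0 h of the 152 members at ETH 24 h (horizontal axis) and MJ 24 h (vertical axis). Orange points are the 16 members called higher and blue points the 3 called lower in ETH 24 h than in MJ 24 h leaves, grey points are the 133 not called, and the dashed line marks equal ratios. Most points lie below the line, and CRO_020790, CRO_013100 and CRO_032819 lie far above it.

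At 3 h the hormones were compared with the same libraries that chose the members, which had to be high in both groups, so these calls describe the spread within the set. Of the 152 members, 12 were called higher in ETH 3 h leaves and 20 lower, together 32 (21.1%), against 1241 of the 18008 genes tested (6.89%), of which 599 were higher (3.33%) and 642 lower (3.57%). Scaling by library totals in place of TMM gave 13 higher and 13 lower, against 7.16% of all genes called. Fitting the 2 groups alone left 2 members called, 1 in each direction, against 175 of 17540 genes (0.998%). Without the first library of each hormone 8 members were called higher and 19 lower, 24 of them among the 32. Of all genes, 6.96% were called in that fit. The median log2 ratio of the members, ETH 3 h over MJ 3 h, was -0.09, against 0.08 over all genes of at least 5 CPM, and 82 members were within 0.5 of equal levels.

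The members with the largest fold changes of ETH 3 h over MJ 3 h among those called were CRO_004397, CRO_017678 and CRO_013624. They were picked as the largest calls, from libraries that also chose the members. Their p-values at 3 h therefore describe the values and are no independent support. CRO_004397 had 37.8, 17.8 and 8.40 CPM in ETH 3 h libraries, against 4.22, 0.464 and 1.38 CPM in MJ 3 h libraries (log2 fold change 3.34 ± 0.757 SE, edgeR adjusted p = 0.0177). Leaving out ETH 3 h replicate 1 ended the call, as did leaving out MJ 3 h replicate 3, with adjusted p of at most 0.0822. CRO_013624 had 180.6, 166.9 and 112.5 CPM in ETH 3 h libraries, against 13.7, 31.7 and 22.7 CPM in MJ 3 h libraries (log2 fold change 2.62 ± 0.465 SE, edgeR adjusted p = 0.00470). CRO_017678 had a log2 fold change of 3.01 ± 0.586 (SE; edgeR adjusted p = 0.00774).

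CRO_013624 was called at 24 h too, with 43.2, 38.1 and 43.0 CPM in ETH libraries, against 4.26, 4.81 and 14.8 CPM in MJ libraries (log2 fold change 2.28 ± 0.464 SE, edgeR adjusted p = 0.0393). The 24 h call was lost in 5 of the 6 fits that left out a library, the exception being the fit without MJ 24 h replicate 3. Across the set 6 members were called at both times, each in the same direction: CRO_006012, CRO_013624, CRO_017678, CRO_028519 and CRO_033820 higher in ETH, and CRO_032819 lower. The 3 h calls rest on libraries that also chose the members, and no such count over all genes tested is given here. The 6 are therefore a description of the set. CRO_006012, CRO_028519 and CRO_033820 were singled out after their values were seen. In the fits that left out 1 library, only CRO_017678 was called in all 6 at both times. CRO_006012 kept its 24 h call in all 6 but lost its 3 h call in 4 (adjusted p up to 0.0706). CRO_028519 lost its 24 h call in 3 (adjusted p up to 0.0711) and CRO_033820 in 5 (adjusted p up to 0.117), and both were called in all 6 at 3 h. CRO_032819 lost its 3 h call in 4 (adjusted p up to 0.154).

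On the MJ side CRO_004157 had the largest difference. The p-values at 3 h here too come from libraries that chose the members, so they describe the values and are no independent support. It had 4.17, 12.8 and 17.9 CPM in ETH 3 h libraries, against 70.4, 135.0 and 289.4 CPM in MJ 3 h libraries (log2 fold change -3.94 ± 0.768 SE, edgeR adjusted p = 0.00787). At 24 h it had 15.1, 14.1 and 6.16 CPM in ETH libraries and 2.30, 2.29 and 7.34 CPM in MJ libraries, which overlapped. CRO_000255, on cro_scaffold_3021645 at 1295 to 2357 on the minus strand, had 1.41, 2.89 and 0.568 CPM in ETH 3 h libraries, against 6.03, 8.31 and 22.7 CPM in MJ 3 h libraries (log2 fold change -3.05 ± 0.611 SE, edgeR adjusted p = 0.00920). It was near the floor at 0 h, with 6, 7 and 7 counts, and had 1.82, 1.64 and 1.59 CPM at MJ 24 h.

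CRO_019040 had 78.7, 91.5 and 49.3 CPM in ETH 3 h libraries, against 298.9, 358.8 and 789.7 CPM in MJ 3 h libraries (log2 fold change -2.85 ± 0.489 SE, edgeR adjusted p = 0.00378). By 24 h it had 31.6, 51.5 and 67.3 CPM in ETH libraries and 30.6, 41.2 and 14.5 CPM in MJ libraries, against 28.0, 43.9 and 29.6 CPM at 0 h, and all 3 ranges overlapped. The other 24 members called at 3 h had log2 fold changes of 0.87 to 2.54 (9 higher in ETH) and, with CRO_032819 and CRO_015321 set aside, -2.39 to -0.81 (15 lower in ETH).

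**Figure D5:**
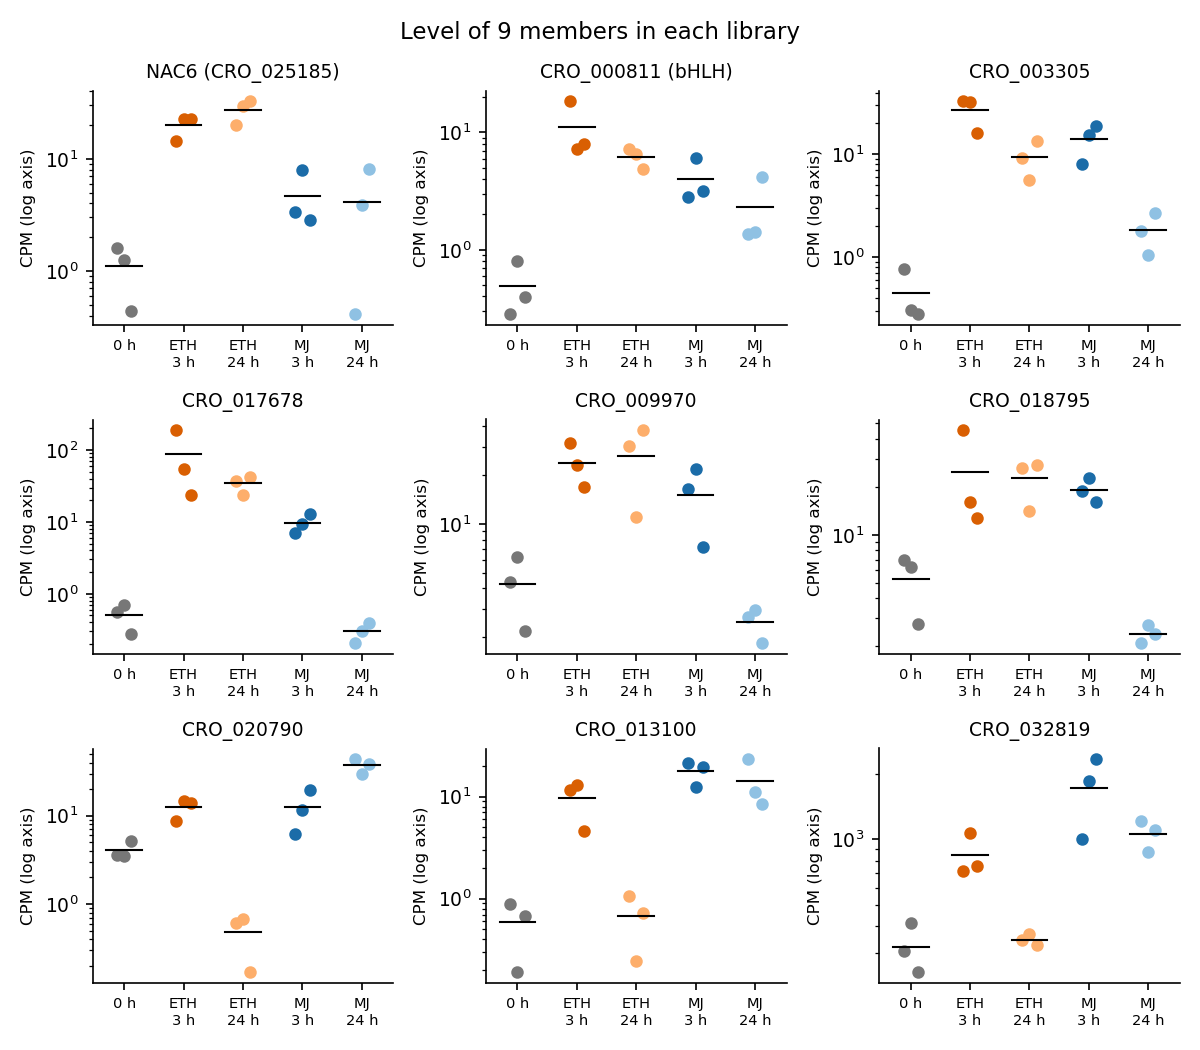
Level of 9 members in CPM on a log axis at 0 h, then at both times after ETH and at both times after MJ, with each point a library and each bar the mean of 3. NAC6, CRO_000811, CRO_003305, CRO_017678, CRO_009970 and CRO_018795 stand higher in ETH 24 h than in MJ 24 h libraries, with no overlap. Of these, NAC6, CRO_000811 and CRO_003305 (edgeR adjusted p = 0.054) were not called at 24 h. No overlap in this direction held for 25.5% of all genes of at least 5 CPM, and in the reverse one for 7.52%. CRO_020790, CRO_013100 and CRO_032819 stand lower in ETH 24 h libraries, also with no overlap.

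None of the listed ethylene signalling or jasmonate genes was a member. Of 12 ethylene signalling genes, 6 met the ETH 3 h part of the rule and 1, RAP2.12, met both. RAP2.12 encodes an ERF-type transcription factor and is 1 of the 3 IDs set aside. At 24 h, 5 of the 12 were called higher in ETH than in MJ leaves by edgeR and 0 lower (11 were tested). Over all 18008 genes tested, 108 were called higher (0.6%) and 79 lower (0.439%). DESeq2 and limma voom also called 5 higher and 0 lower, and 0 were lower at an unadjusted p under 0.05 with any of the 3 tools. The study placed several of these genes, such as EBF2, EIN4 and CTR1, in networks built on the same libraries. Their counts are thus not independent of the data, which all 3 tools shared. EBF2, the F-box gene that turns over EIN3-type factors, had 3994.5, 4407.3 and 4587.4 CPM in ETH 24 h libraries, against 691.0, 835.2 and 1662.9 CPM in MJ 24 h libraries (log2 fold change 1.91 ± 0.331 SE, edgeR adjusted p = 0.0213). Of the 5 jasmonate genes, 4 met the MJ 3 h part and 0 met the ETH 3 h part. At 24 h edgeR and DESeq2 called 0 of these 5 in either direction, with 1 higher in ETH than in MJ leaves at an unadjusted p under 0.05 in each, while limma voom called 1 higher.

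The other lists held few members. Among 15 bHLH factors, 6 met the ETH 3 h part, 3 the MJ 3 h part, and CRO_000811 both. Among 44 transcription factors of the study's green and pink network modules, 14 met the ETH 3 h part, 3 the MJ 3 h part, and NAC6, RAP2.12 and HB-1 both. The study chose these 44 on the same libraries, so their counts are not independent of the data. Of 12 enzymes of the alkaloid pathway, 1 met the ETH 3 h part (HL2) and another the MJ 3 h part (HYS), and none was a member. Of the 6 WRKY factors 4 met the ETH 3 h part and 0 the MJ 3 h part. No member was found among the 11 calcium signalling, 5 light and clock, 7 heat shock or 6 leaf chloroplast genes.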

How the data were processed

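Leaf mRNA libraries (TruSeq Stranded kit, paired-end, Illumina HiSeq) were aligned by the authors with HISAT2, listed as version 2.0.4 among the submitters' tools, and counted with HTSeq. The deposited table holds raw counts per gene, 33829 genes in 15 libraries. The strand setting and the choice between the 2 genome sources named in the methods are not given in the sources used here. Overlapping antisense genes and near-identical copies cannot be separated. The labels' extraction text names an animal tissue and was not used.

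The 152 members and the gene lists were chosen with earlier results of these data known. CPM used column sums. The main test was edgeR 4.0.16 (quasi-likelihood, TMM, filterByExpr, all 15 libraries, 1 coefficient per group, Benjamini-Hochberg adjustment over 18008 genes) in R 4.3.3, with DESeq2 1.42.0 and limma 3.58.1 (voom) as alternatives. The p-values measure the spread between libraries described as biological replicates. Total counts of 23710688 to 31168281 set the counting precision. The 24 h comparison was also run on simulated counts. These did not carry the library differences described above, and no result is drawn from them. Genes named were members with an annotation, the 3 with the largest smaller ratio at 3 h, the 3 most abundant at 3 h, the 3 largest non-overlapping calls in each direction at 24 h and at 3 h, the genes nearest the threshold, and list genes that a result needed. Gene names and positions came from the study's tables. The RefSeq table (assembly ASM2450571v1) matched 0 of the IDs, so no sequence is shown.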

Additional observations from a re-analysis of the deposited data

Results flagged for a closer look

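The change between 3 h and 24 h, as a log2 difference of ETH minus MJ from edgeR, stood out for 7 of the members described by the rule for named genes. These 7 were picked by the call threshold, which is no support here because the 3 h libraries in this contrast also chose the members. The differences are given as a description, with no p. CRO_020790 had a difference of -6.24 ± 0.731 on the log2 scale (SE) and CRO_013100 one of -3.59 ± 0.856, where the level at 24 h relative to 3 h was lower under ETH than under MJ. The difference was 5.41 ± 1.04 for CRO_004157, 3.82 ± 0.925 for CRO_001050, 3.67 ± 0.885 for CRO_017678, 3.50 ± 0.665 for CRO_019040 and 2.89 ± 0.608 for CRO_018795. In these 5 the level at 24 h relative to 3 h was lower under MJ than under ETH. CRO_006012, named after its values were seen, had a difference of 1.25 ± 0.303.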

How the results depend on the processing

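The rule found 593 genes at a 1.5-fold threshold, 56 at a log2 threshold of 1.5 and 438 without the no-overlap condition. Leaving out 1 library gave 136 to 330 genes, the highest without 0 h replicate 2. For ETH 24 h against MJ 24 h, DESeq2 called 40 members (4.46% of all genes), limma voom with quality weights 56 (9.18%) and a fit of the 2 groups alone 32 (3.17%), beside 19 in edgeR, and all 19 were among the calls of DESeq2 and of voom. Leaving out 1 library gave 4 to 17. For ETH 3 h against MJ 3 h, the fit of the 2 groups alone called 2 members (0.998% of all genes). Leaving out 1 library gave 18 to 35 (4.34% to 7.91% of all genes), beside 32. At MJ 24 h, 21 members passed a 1.5-fold threshold over 0 h, beside 12 at 2-fold, and 10 to 21 with 1 library left out. The median log2 ratio of ETH 24 h over MJ 24 h was 0.49 under TMM and 0.49 to 0.70 with 1 library left out. Members lower in every ETH 24 h than in any MJ 24 h library numbered 17 under TMM and 10 to 18 with 1 library left out, beside 10 (alternatives added after seeing the data, as was the fit without both first libraries). The cause of these differences was not tested, except that fits without a library rest on fewer samples. None of these results, nor the fold changes of named members, reversed a called direction under the alternatives run. Replicate numbers did not pair the libraries at 24 h, where correlations of same-numbered libraries were 0.055, -0.096 and -0.279. At 3 h these were 0.736, 0.499 and -0.271, while ETH replicate 3 and MJ replicate 2 had 0.715. Pairing at 3 h was therefore not settled. A replicate block called 17 members at 24 h and 24 at 3 h, against 0.655% and 6.55% of all genes. Members under 1 CPM at 0 h rest on few counts, and their ratios depend on the pseudocount.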
